A study of Mus musculus with 28 samples.

Results

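RNA polymerase I copies the ribosomal RNA genes in the nucleolus, and several genes of its machinery are linked to the bones of the face. The 7 genes described here encode parts of that machinery. They are Tcof1, Nolc1, Polr1a, Polr1b, Polr1c, Polr1d and Ubtf, taken by name from a list of ribosome biogenesis genes, without the use of any measured value. All 7 were found among 21887 protein-coding genes of the mouse annotation. The measurement is acetylation of histone H3 at lysine 27 (H3K27ac), found at promoters and enhancers in use, in cranial neural crest cells. Such cells migrate into the face and build most of its skeleton.

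The series holds 28 chromatin immunoprecipitation libraries of mouse embryos, and the deposited list of H3K27ac intervals rests on 4 of them. These are wild-type (genotype WT) E10.5 libraries from FNP, Mx, Md and PA2, as the labels call the populations, with 1 library each, from dissected, fixed and sorted cells. The authors merged their reads and called intervals once, so the list has no replicates, no population can be told from another, and its depth is unknown. Values therefore carry no error and no test. The other 24 libraries, with their other antibodies, inputs, stage and Ezh2cKO or HoxA2OE genotypes, were not analysed here. Each interval has a position in GRCm38 and a score, the authors' value, which grows with the strength of the call and with read number. Scores were used only to describe and rank intervals within this list, which holds 125826 intervals with a median score of 111 and a median width of 271 bp. An interval cannot say whether many cells carried the mark weakly or few carried it strongly.

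Polr1a and Polr1b encode the pair of largest subunits of RNA polymerase I, which form its catalytic centre. Polr1c and Polr1d encode smaller subunits that the enzyme shares with RNA polymerase III, which makes transfer RNA and 5S ribosomal RNA. Tcof1 encodes treacle and Nolc1 encodes its relative Nopp140, nucleolar phosphoproteins that serve ribosomal RNA synthesis and modification. Ubtf encodes the upstream binding factor, which keeps the ribosomal RNA genes open and recruits the polymerase. In humans, TCOF1, POLR1B, POLR1C and POLR1D are the genes of Treacher Collins syndrome, in which cheek and jaw bones are small, and POLR1A is linked to a related facial dysostosis. Neural crest cells need ample ribosome production to survive and divide, and mouse embryos with too little treacle lose many of them.

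The 6 genes with a start given here carried H3K27ac at or beside one, and Tcof1 carried it beside a gene end, but the layout differed between them. At Polr1a a single strong interval ran over the start. At Polr1b, Polr1c, Polr1d and Nolc1 the annotated start itself lay in a gap between intervals, as did the marked end of Tcof1. The sequences below show this for 4 genes. Each runs from 250 bases before the annotated start to the 30 bases that begin at it (RefSeq, GRCm38.p6), in the direction of the gene. Lower case marks bases under an H3K27ac interval, and capitals mark bases under none. Polr1a is shown because every base lies under an interval, Polr1b and Polr1c because their gaps are among the narrowest, and Nolc1 because its gap, of 232 bp, is closer to the median of such gaps (194 bp).
Polr1a: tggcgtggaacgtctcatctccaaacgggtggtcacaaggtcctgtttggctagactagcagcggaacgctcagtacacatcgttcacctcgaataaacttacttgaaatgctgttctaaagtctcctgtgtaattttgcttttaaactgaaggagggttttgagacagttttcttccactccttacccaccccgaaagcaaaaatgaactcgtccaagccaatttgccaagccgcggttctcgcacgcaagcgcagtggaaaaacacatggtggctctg
Polr1b: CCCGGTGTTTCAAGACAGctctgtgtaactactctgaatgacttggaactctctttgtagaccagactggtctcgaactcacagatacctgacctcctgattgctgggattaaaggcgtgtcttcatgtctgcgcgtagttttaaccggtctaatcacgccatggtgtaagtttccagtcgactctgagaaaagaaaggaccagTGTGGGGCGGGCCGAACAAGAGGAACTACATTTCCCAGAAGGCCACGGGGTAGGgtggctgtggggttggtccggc
Polr1c: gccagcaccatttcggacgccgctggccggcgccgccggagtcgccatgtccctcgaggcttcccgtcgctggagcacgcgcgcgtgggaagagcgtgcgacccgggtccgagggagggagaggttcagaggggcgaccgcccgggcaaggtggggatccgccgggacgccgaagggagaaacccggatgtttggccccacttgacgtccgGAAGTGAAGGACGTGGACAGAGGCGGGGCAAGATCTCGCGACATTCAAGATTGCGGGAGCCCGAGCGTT
Nolc1: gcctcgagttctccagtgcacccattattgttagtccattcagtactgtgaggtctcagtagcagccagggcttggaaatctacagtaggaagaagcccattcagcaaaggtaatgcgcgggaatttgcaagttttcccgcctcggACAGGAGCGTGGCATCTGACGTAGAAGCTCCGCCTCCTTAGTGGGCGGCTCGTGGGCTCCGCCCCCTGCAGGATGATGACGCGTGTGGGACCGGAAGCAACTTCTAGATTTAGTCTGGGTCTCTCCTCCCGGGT

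The Polr1a window lies at chr6:71908803-71909082 on the plus strand and has no base in capitals. The Polr1b window (chr2:129100746-129101025, plus strand) has 72 bases in capitals, in a short stretch at its far end and in another around the start. The Polr1c window (chr17:46248016-46248295, minus strand) has 69 bases in capitals. In the Nolc1 window (chr19:46075597-46075876, plus strand) 134 bases are in capitals, from position -104 to position 29, where the start base is position 0.

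Polr1a, which encodes the largest subunit, had the highest score of the 7 genes. Its top interval (chr6:71908088-71909294) was 1207 bp wide and had a score of 11565, rank 208 among the 14235 protein-coding genes with an interval within 1 kb of an annotated gene end. That is above 98.5% of those genes by score and above 82% of them by width. The interval is not Polr1a's alone, since it also covers an end of Ptcd3, 279 bases away. Ptcd3 encodes a mitochondrial ribosomal protein and has an annotated start within 1 kb of the interval. The list cannot divide the score between the pair. A second shared interval, 173 bp wide with a score of 165, lay just inside Polr1a. Without shared intervals, the top score left at Polr1a was 86, at the far end of the gene, which is above 5.7% of the genes that have an unshared one.

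Polr1b, the other catalytic subunit gene, had 3 intervals at its start, with scores of 183 and 368 before it and 1455 after it. The strongest (chr2:129101004-129101816) was 813 bp wide and began 8 bases after the annotated start. Its score was above that of 36.3% of marked genes and its width above that of 50.2%. A gap of 54 bp held the start, and 6 of 2954 starts of this kind had a gap no wider, the smallest being 52 bp. The gap thus lies at the lower limit of gaps in this list. Whether the caller joined calls that lay closer together was not tested. A long non-coding RNA gene, Gm46764, has a gene end 26 bases before Polr1b, and all 3 intervals lie at that end as well. An annotated start of Gm46764 also lay within 1 kb of all 3. The strongest interval near Polr1b was not at its start. It belonged to Chchd5, a gene for a mitochondrial protein just beyond the far end, and had a score of 4788 and a width of 516 bp.

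Polr1c had scores of 5072 and 3909 in a pair of intervals, 600 and 754 bp wide, on each side of its start. The higher of them (chr17:46247408-46248007) was above 77.3% of marked genes by score, but above only 28% by width. A gap of 77 bp separated the pair, wider than at only 4.1% of starts flanked in this way. Yipf3, a gene for a Golgi membrane protein, has a gene end 34 bases away inside the same gap and shares both intervals. An annotated start of Yipf3 also lay within 1 kb of both. Polr1c is short, at 4126 bp, and held no interval apart from those at its start.

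Polr1d had 3 intervals around its beginning, with scores of 1217, 498 and 1561 and widths of 564, 365 and 637 bp. The last and highest (chr5:147077547-147078183) was above 37.8% of marked genes by score and 31.4% by width. The annotation gives this gene an outer end at 147076715 and, further in, a start at 147077346, and neither base was under an interval. The outer end lay in a gap of 207 bp, and the start in a gap of 445 bp, wider than at 93.4% of starts flanked in this way. All 3 intervals also lay within 1 kb of an end and of an annotated start of Lnx2, a ubiquitin ligase gene 142 bases away. From the first interval to the last they spanned 2218 bp, more than at 97.1% of 9084 marked genes with a single annotated start, for which the median span was 1233 bp.

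Tcof1, the main Treacher Collins gene, had 2 intervals at one end of the gene. The one inside the gene (chr18:60848272-60848929) was 658 bp wide with a score of 1616, and the one outside it was 522 bp wide with a score of 958. The first was above 38.5% of marked genes by score and 33.6% by width. The annotated end lay in a gap of 208 bp between them. The other end of the gene, at 60813738, had no interval within 1 kb. No start was given here for any gene on chromosome 18. A strand and start for Tcof1 were therefore not used, and its marked end is given as an end and not as a start. No other gene had an end nearby, the nearest being that of the long non-coding RNA gene Gm41744 at 10224 bases.

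Nolc1, the relative of Tcof1, had a pair of similar score. Scores were 2390 before the start and 2021 after it, with widths of 545 and 927 bp. The higher (chr19:46075198-46075742) was above 48.7% of marked genes by score and 23.3% by width. The gap over the start was 232 bp. The nearest end of another gene, that of Pprc1, was 2937 bases away, and neither interval was shared. Together they covered 1472 bp, more than at 80.6% of marked genes with a single start, for which the median was 1127 bp. The highest score near Nolc1 was that of Pprc1, a gene for a coactivator of mitochondrial biogenesis, at 4565.

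**Figure D1:**
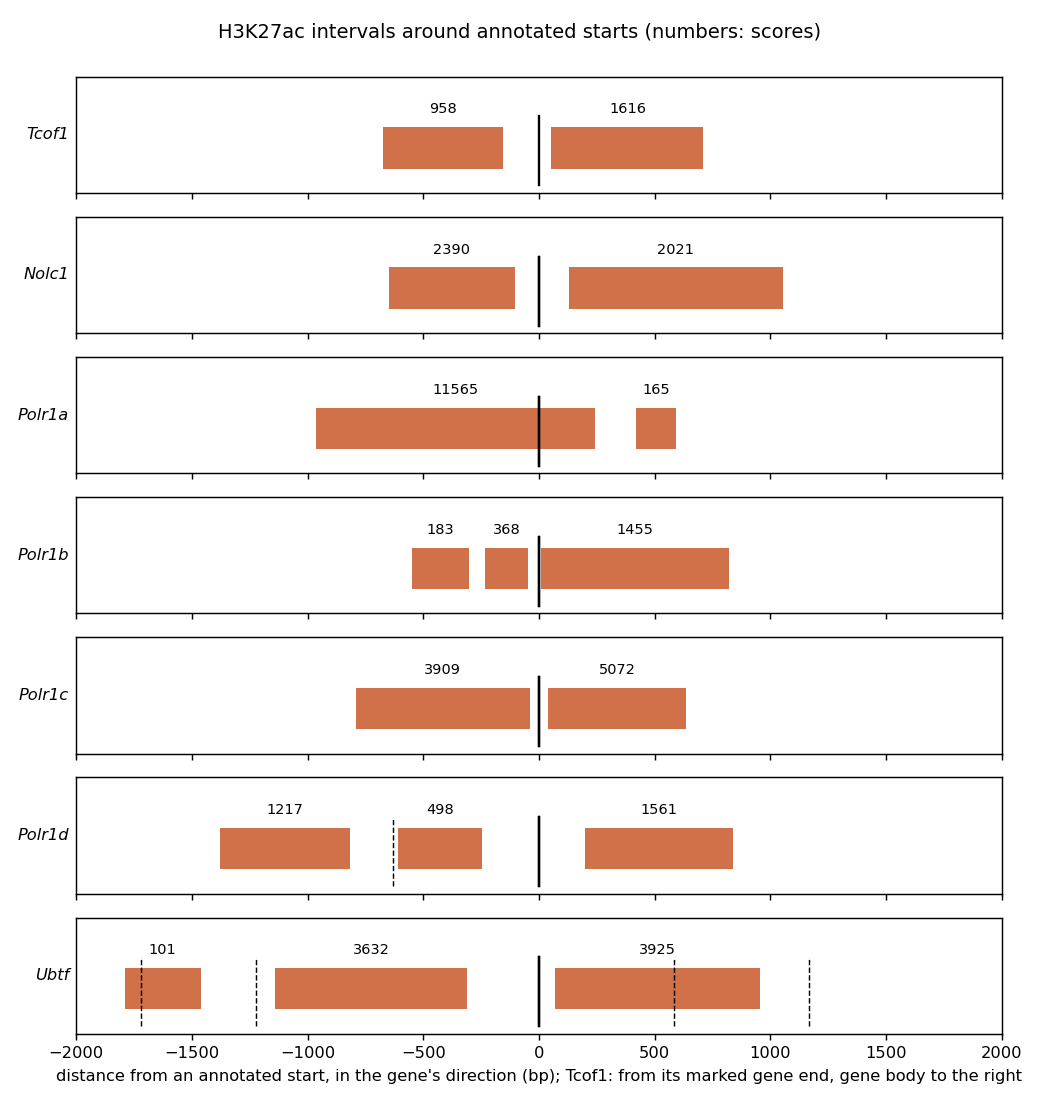
Intervals (bars, with scores above them) around an annotated start of each gene, in bp and in the direction of the gene. Solid lines mark the start set at 0 and dashed lines other annotated starts or ends. Tcof1 is drawn from its marked gene end, with its body to the right. Ubtf is drawn from 1 of its 2 flanked starts, the one further inside the gene (gap of 377 bp). Of the other 6 genes, only Polr1a has an interval over the position at 0, with a score of 11565.

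Ubtf stood apart in where its marks lay. It had no interval within 1 kb of either annotated gene end and would be missed by a rule that looks only there. Instead, of 6 intervals inside the gene, 3 lay within 1 kb of a start. These 3 were 3987 bp or more from its outer end, where the annotation places most of its 6 starts. Their scores were 3925, 3632 and 101 and their widths 886, 835 and 329 bp. The strongest (chr11:102316917-102317802) would be above 66.6% of marked genes by score and 57.7% by width. Of the 6 starts, 2 were covered by an interval, 2 lay in gaps of 377 and 319 bp between intervals, 1 had an interval on one side, and the outermost had none within 1 kb. Among 6140 genes with a start given and no interval at an end, 685 (11.2%) had one within 1 kb of a start.

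A count over the genes must be read against the background. An interval lay within 1 kb of a gene end in 6 of the 7 genes, and in 65.0% of all protein-coding genes. All 7 had an interval over the gene, as did 73.1% of all protein-coding genes, and all 7 had one over the gene or within 20 kb, as did 83.3%. All 6 genes with a start in the sequence table had an interval within 1 kb of one, against 65.5% of all such genes. The top interval was also at an end of another protein-coding gene in 3 of the 6 genes marked at an end (Polr1a, Polr1c and Polr1d), against 24.0% of all marked genes. When an interval had to cover the end base itself, only Polr1a of the 7 remained, and 32.6% of all protein-coding genes met that rule.

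The gap over the start was looked at after the values had been seen. Of the 5 genes here with a single annotated start, 4 had an interval on each side and none over the start (Nolc1, Polr1b, Polr1c and Polr1d), against 22.7% of the 9084 marked starts of such genes. Over all 13821 starts with an interval within 1 kb, 21.4% were flanked in this way, 62.1% were covered and 16.5% had intervals on one side. The median top score was 2992 at flanked starts and 3089 at covered ones. The median gap was 194 bp (quartiles 140 and 276 bp). Gaps ran from 54 bp at Polr1b to 445 bp at Polr1d, with none at Polr1a, while those of all flanked starts ran from 52 to 1566 bp.

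**Figure D2:**
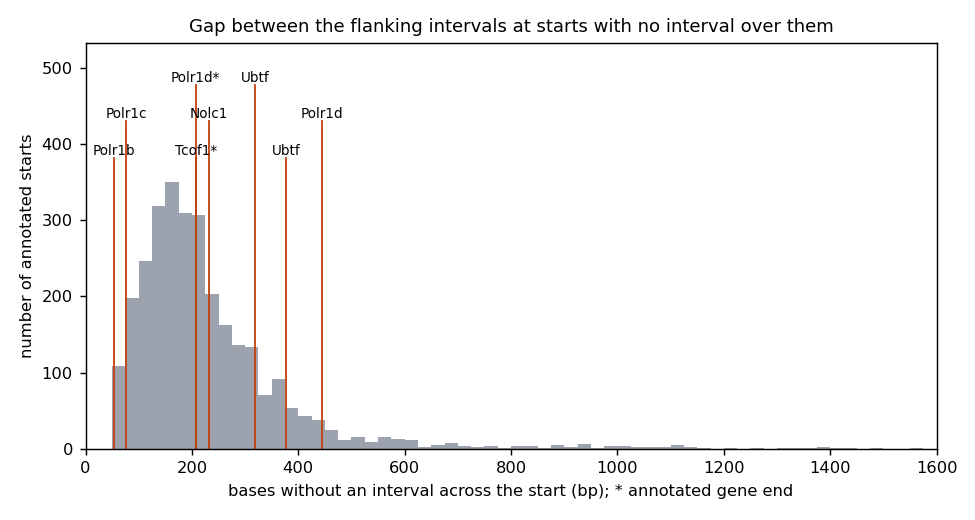
Histogram of the gap in bp at the 2954 annotated starts of protein-coding genes with an interval on each side and none over the start. Lines mark the gaps at the genes described, with an asterisk where an annotated gene end was used; Polr1b (54 bp) and Polr1c (77 bp) lie at the narrow edge and Polr1d (445 bp) in the upper tail.

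The interval after the start, in the direction of the gene, had the higher score of the flanking pair at most of these starts. It was higher at Polr1b (1455 after the start, 368 before), at Polr1c (5072 and 3909), at Polr1d (1561 and 498) and at both flanked starts of Ubtf. Nolc1 was the exception. Over all flanked starts the interval after the start was the higher in 68% of cases, with median scores of 2152 after and 1006 before. At Polr1c the interval before the start is also the one that runs into Yipf3. Annotated starts of Gm46764, Yipf3 and Lnx2 lay within 1 kb of the intervals at Polr1b, Polr1c and Polr1d. Before and after are therefore given for the described gene only.

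Scores and widths were compared for the top interval alone, while the mark at several genes was split into more intervals. Whether splitting lowers the top score was not tested. At 4 of the 6 genes marked at an end, the top score was below the median of all marked genes, which was 2494 (quartiles 704 and 4794). The median over the 6 was 2003. For width the median of the 6 was 648 bp, against 810 bp for all marked genes (quartiles 564 and 1098 bp). Width was low even for the score at some genes. At Nolc1 it was above only 8.91% of 1661 genes with a score within 20% of its own, whose median was 851 bp, and at Polr1c above 6.76% of 2250 such genes, whose median was 991 bp. Polr1a was above 67.8% and Polr1b above 52.7% of genes of like score. When the widths of all intervals at the start were added up, the order changed, and the sums of Polr1b (1249 bp), Polr1c (1354 bp), Polr1a (1380 bp), Nolc1 (1472 bp) and Polr1d (1566 bp) were all above the median of 1127 bp of marked genes with a single start. At the marked end of Tcof1 the sum was 1180 bp.

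**Figure D3:**
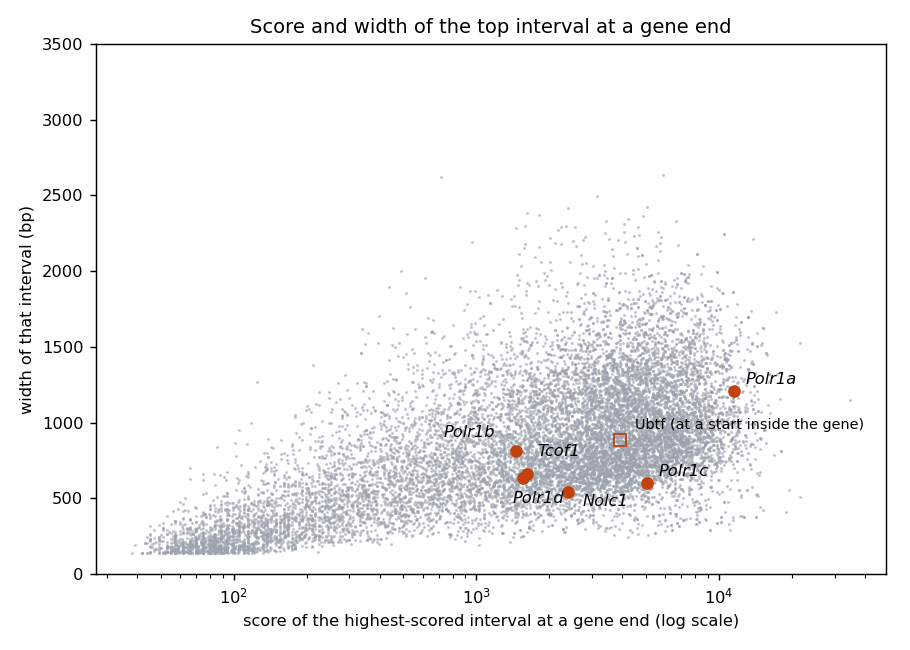
Score (horizontal, log scale) and width in bp (vertical) of the top interval at a gene end for each marked protein-coding gene (grey points). The 6 genes marked at an end are filled circles and the strongest interval at a start of Ubtf is an open square; Polr1a stands far to the right at a score of 11565, while Nolc1 (545 bp) and Polr1c (600 bp) lie low for their scores.

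Beyond their starts the genes differed in how much acetylation surrounded them. Over each gene and the 20 kb on either side lay 13 intervals at Polr1a, 12 at Ubtf, 7 at Tcof1, 5 at Polr1b and 4 each at Nolc1, Polr1c and Polr1d. The median of all protein-coding genes was 4. Longer genes have longer windows, and per 10 kb the values were 2.03 at Ubtf, 1.18 at Polr1a, 0.93 at Tcof1, 0.906 at Polr1c, 0.805 at Nolc1, 0.745 at Polr1b and 0.536 at Polr1d, with a median of 0.639 over all protein-coding genes. By this density Ubtf was above 97% of genes. Of these, 5 of the 12 intervals lay at ends of Tmub2, Atxn7l3 and Gm33851, with scores of 465 to 3052.

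Intervals away from every protein-coding gene end numbered 9 at Polr1a, 7 at Ubtf, 4 at Tcof1 and 1 at Polr1d, and there were 0 at Nolc1, Polr1b and Polr1c. The median of all protein-coding genes was 2. The 7 at Ubtf include the 3 at its inner starts. Inside Polr1a the strongest was 539 bp wide with a score of 293 (chr6:71940457-71940995). A pair of broader ones lay past its far end, where the table used here has no gene end within 1 kb. The nearer was 653 bp wide with a score of 841, and the further (chr6:71990215-71991827), 10780 bp from Polr1a, was 1613 bp wide with a score of 573. Only 735 intervals of the whole list were as wide as that, and 265 of them lay away from protein-coding gene ends. In Tcof1 the inner intervals were weak, with scores of 103, 114 and 151. Ubtf held one of 549 bp with a score of 469 (chr11:102309246-102309794).

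**Figure D4:**
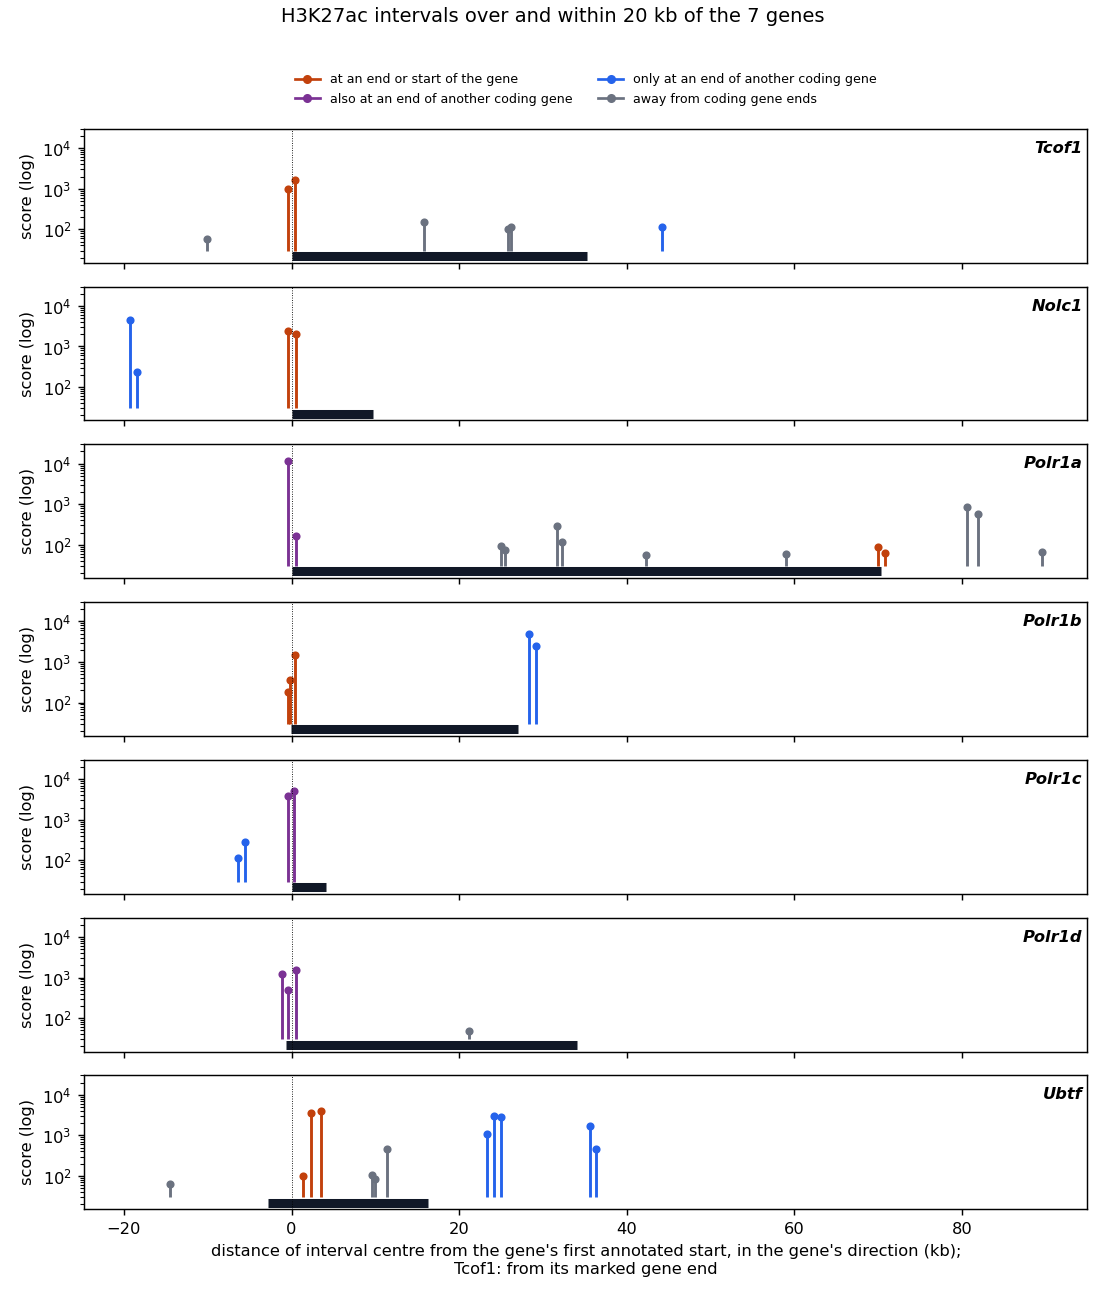
Intervals over and within 20 kb of each gene, by distance from the first annotated start in kb (from the marked gene end for Tcof1) and by score (log scale). Black bars are the annotated genes and colours show whether an interval lies at an end or start of the gene, also at an end of another coding gene, only at such an end, or away from them; Polr1a has the tallest mark and a pair of intervals past its far end.

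Promoter sequence differed widely among the genes. In the 300 bases around the start, Polr1c had 69.7% G and C and 40 CpG dinucleotides, while Polr1a had 48.7% and 15, Polr1b 52.7% and 13, Nolc1 57% and 18, and Polr1d 54.7% and 7. The Polr1d bases lie around its inner start at 147077346 and do not reach its outer end at 147076715. Among the starts of Ubtf the share of G and C ran from 46.3% at the outermost, which had no interval within 1 kb, to 82.3%. Medians over 13821 promoters with an interval within 1 kb were 61.3% and 21 CpG, and over 7442 promoters without one 46.7% and 3. Polr1a, with the strongest mark, which it shares with Ptcd3, thus had fewer G, C and CpG than the typical marked promoter. So did Nolc1, Polr1b and Polr1d, and the last 2 had fewer CpG than Polr1a.

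A set of short motifs was searched on both strands of the same 300 bases. The GC box of Sp factors (GGGCGG) was found at 4 of the 6 genes with a start given, namely Nolc1, Polr1b, Polr1c and Ubtf. It was in 8 of their promoters, in 46.2% of all promoters and in 64.3% of the marked ones. Marked promoters are those with an interval within 1 kb of the start. Ubtf has 6 promoters here and was counted if any held a match, so counts of genes and shares of promoters are unlike measures. The Ets site (CCGGAAG) was found at Nolc1 and Polr1c, in 11.6% of all promoters and in 16.6% of the marked ones. The CCAAT box was found at Polr1a, 31 bases before the start, and at the outermost start of Ubtf, in 38.2% of all promoters and in 37.4% of the marked ones. The E-box CACGTG, bound by Myc, a known activator of ribosome production, was in none of the windows of these genes, in 7.84% of all promoters and in 9.97% of the marked ones. No match was found either for the TATA box (TATAAA), which 12.6% of all promoters and 6.71% of the marked ones held. In the sequences printed above, the GC boxes of Nolc1, which begin at positions -62 and -46, its Ets site at position -14 and the GC box of Polr1b at position -42 are all in capitals, in the gap. The GC box of Polr1c at position -113 is under an interval, and its Ets site crosses the edge of one. Over all 2954 flanked starts the GC box occurred 8.76 times per kb of gap and 2.67 times per kb under intervals, and the Ets site 0.949 and 0.498 times per kb. Of the 7 motifs searched, only the YY1 site (AAGATGGCG) was less dense in gaps, with 0.0457 matches per kb of gap and 0.153 under intervals. Gaps lie closer to the start than the rest of the window, and the part of position in these densities was not tested.

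Lists of genes with related work were set beside these. An interval lay at an end of all 70 genes listed, against 65.0% of all protein-coding genes. The lists hold other subunits and factors of the 3 polymerases, ribosomal RNA processing genes and splicing genes. The other 4 subunits of RNA polymerase I had a median top score of 4106, from 941 at Polr1e to 5828 at Twistnb. The 7 initiation and termination factors had a median of 2804, from 1799 at Taf1a to 7457 at Taf1d, and the 5 subunits shared by all 3 polymerases 2139, from 1825 at Polr2e to 6968 at Polr2l. Subunits of RNA polymerase III had a median of 3373 over 11 genes, from 1222 at Polr3a to 4936 at Crcp. Those of RNA polymerase II had 4308 over 7 genes, from 2789 at Polr2g to 6863 at Polr2a. Ribosomal RNA processing genes had 3482 over 30 genes, from 480 at Rrp9 to 10458 at Fbl, the gene for fibrillarin. The top intervals of Fbl, Rrp9, Taf1d, Polr2l and Polr2a were also at an end of another protein-coding gene. Their scores, like that of Polr1a, are therefore not theirs alone. The median of 2003 for the 6 genes described here was below that of each of these lists, and Polr1a alone lay above the highest score of every one of them. That order rests on gene ends, where Ubtf has no value. With scores taken at annotated starts, where Ubtf enters and Tcof1 does not, the median of the 6 genes was 3158, above the 2804 of the initiation and termination factors and the 2182 of the shared subunits, and below the other lists, the nearest being ribosomal RNA processing genes at 3211.

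Splicing genes that also underlie human syndromes with small facial bones had a median of 7504 over 6 genes, from 5000 at Sf3b4 to 10711 at Snrpb. The top intervals of Sf3b4, Eftud2 and Txnl4a were shared with another protein-coding gene, and those of Snrpb, Sf3b2 and Eif4a3 were not. Only 2 of the 6 had a start given, with a median score of 6546 there. Of the 7 genes described here, Polr1a and Polr1c reached 5000. These scores come from 1 pooled list, and the difference has no test.

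**Figure D5:**
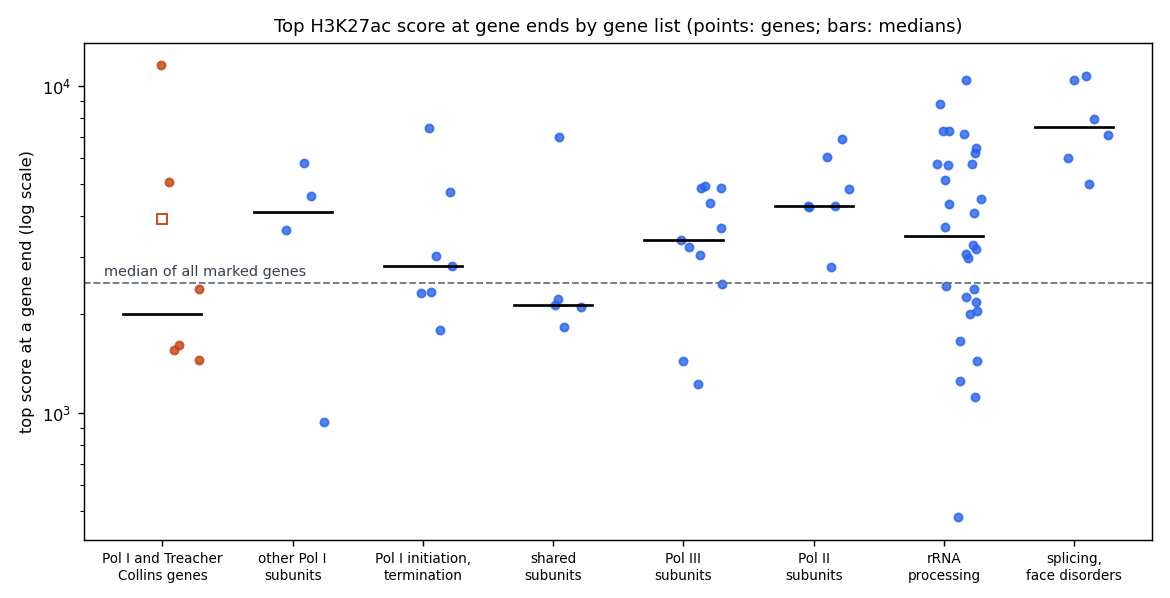
Top score at a gene end (log scale) for each gene in the lists, with the polymerase I and Treacher Collins genes at the left. Points are genes, black bars medians and the dashed line the median of all marked protein-coding genes (2494); the open square is Ubtf at its inner start. The splicing genes at the right sit at 5000 or more, while 4 of the 6 filled points at the left lie below the dashed line.

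In score and width together, the protein-coding gene most like each was Ccdc61 for Tcof1 (1614 and 659 bp, against 1616 and 658 bp at Tcof1), Crtc1 for Nolc1, Ice2 for Polr1a, Rasa3 for Polr1b, Ppp5c for Polr1c and Rhof for Polr1d. Likeness was the distance in log score and log width, each divided by its SD over the 14235 marked genes, and it rests on 1 pooled list.

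The cell type on the labels was checked by markers, where 65.0% of all protein-coding genes have an interval at an end. Of 12 markers of cranial crest mesenchyme, 11 had an interval at a gene end, with scores from 50 at Sox10 to 4697 at Prrx2, and Tfap2a had none. Markers of blood were marked in 2 of 6 (1480 and 1492, with Hba-x, Hbb-y, Gata1 and Ptprc unmarked), of endothelium in 5 of 5 (49 to 391), of epithelium in 4 of 6 (207 to 1367), of muscle in 4 of 5 (137 to 380) and of neurons in 4 of 5 (110 to 4646). Median scores of the marked ones were 921 for crest, 1486 for blood, 99 for endothelium, 336 for epithelium, 241 for muscle and 641 for neurons. The median of all marked genes was 2494. By annotated starts, 8 of 10 crest markers were marked, with a median of 1987, and Tfap2a and Tfap2b were not. By the same rule, with medians in brackets, 1 of 5 blood markers (1480) and 4 of 5 neuron markers (641) were marked. So were 2 of 2 for endothelium (245), 3 of 3 for epithelium (234) and 2 of 2 for muscle (140). Prrx1 had 87 at an end and 2523 at a start, and Pdgfra 137 and 1451. The part of other cell types in the intervals described was not tested.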

How the data were processed

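H3K27ac chromatin immunoprecipitation was measured in 4 wild-type E10.5 libraries of sorted cranial neural crest cells. Per the text deposited with the list, the authors merged their reads and called intervals with MACS2 2.1.3.3 (no model, shift 0, extension 141 bp, duplicates kept, q-value limit 0.001), and no control is named. Per the submitters' processing notes, the software named is Bowtie 1.1.1 and bcl2fastq 2.17, and coordinates follow mm10, another name for GRCm38. The deposited score is a whole number per interval, 31 or higher, by convention derived from the q-value. Neighbouring calls that the caller kept apart count as separate intervals, which lowers widths.

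Gene ends came from a RefSeq table of GRCm38.p6 without exons, and starts, strands and promoter sequences from a RefSeq table with 21263 starts of 17492 protein-coding genes. The second table held 0 starts on chromosome 18, so every start-based share leaves that chromosome out. Among the 7 genes, 6 matched it, and Tcof1, on chromosome 18, did not. Marked genes are those with 1 bp or more of an interval inside 1 kb of an end, on either side. A percentile is the percent of marked genes with a lower value. Values were computed with Python 3.11.15 and pandas 2.3.3, and the overlap rules were tested on simulated intervals. Named are all 7 genes, neighbours that share or exceed their top interval, and the highest and lowest gene of each list. Tmub2, Atxn7l3, Gm33851, Gm41744, Gm46764, Eftud2, Txnl4a, Sf3b2 and Eif4a3 were named after their values were seen. The members and lists were chosen with earlier results of these data known. Gaps and start-based scores were added after seeing the data. Motif matches are descriptions. Nrf1 and YY1 sites were also searched, and no gene described held one.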

Additional observations from a re-analysis of the deposited data

How the results depend on the processing

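The number of genes marked at an end was 6 of 7 in the setting reported, with a window of 2.5 kb and with scores of at least 100, and 7 for intervals over the gene. Within 1 kb of an annotated start it was 6 of the 6 genes with a start given, with Ubtf in and Tcof1 out. It was 1 when the interval had to cover the end base, and the pathway genes then fell to 37 of 70. Of all protein-coding genes, 32.6% met that rule, against 65.0% in the setting reported. The median percentile of the top score was 43.6. It was 62.2 with a window of 2.5 kb, where Polr1b takes the Chchd5 interval and moves to 74.9, and 48.2 over the gene. It was 58.4 with summed scores, 44.4 without shared intervals (where Polr1c and Polr1d have none left and Polr1a falls to 5.7), and 55.2 among all marked genes of the annotation. A value of 55.2 was also found for scores within 1 kb of a start, a setting added after seeing the data. The total of 49 intervals within 20 kb was 93 within 50 kb and 21 away from protein-coding gene ends, both by construction of those settings. Of the other values by gene and list, 43 were close to the reported one and 46 moved, none with a change of direction, as these values have none. No paired analysis was possible because the list was called once on merged reads. No library could be left out for the same reason. Depth is unknown, so an absent interval is one not called at this depth.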
